A study of Capra hircus with 24 samples.

Results

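The transcripts described here gave a clear signal in every milk RNA sample and in no blood sample of 8 healthy goats in their 3rd lactation. A probe was a member if its sample signal (Cy5, the red dye) passed the scanner software's flag for a spot well above background on each of the 16 milk arrays, and failed it on each of the 8 blood arrays. This held for 288 of the 43653 probes that are not controls. From these, 12 probes of 10 accessions on a list given with the rule were left out, which left 276 members, 0.632% of all probes, with 230 accessions.

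The goats were females of 2 dairy breeds, Polish White Improved (PWI, 4 goats) and, with as many animals, Polish Fawn Improved (PFI). Milk somatic cells (MSC) are the cells shed into milk, milk fat globules (MFG) are the secreted lipid droplets, and the blood samples held peripheral nuclear cells (PNCB). Each of the 6 groups, MSC, MFG and PNCB of PWI and of PFI, holds 4 arrays, 1 per goat, and no goat was treated. All samples were read against a single pool of blood RNA labelled with Cy3, the green dye, made from 7 other goats in their 4th lactation (4 PWI and 3 PFI). The array carries cattle sequences, so a probe that differs from the goat transcript can read low. RNA from blood was prepared with another kit than RNA from milk, and wherever milk is set against blood the kit and the source cannot be told apart.

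As background, milk fat leaves the secretory epithelial cell wrapped in the cell's own membrane, and crescents of cytoplasm can be enclosed with the droplet. RNA of milk fat globules is for this reason used as a sample of the secreting cell that needs no biopsy. Milk somatic cells are a mixture of leukocytes that have entered the gland and of shed epithelial cells, and their makeup varies with the health and the stage of the gland. Blood nuclear cells are leukocytes, so transcripts of secretory epithelium are not a usual part of their RNA. In bulk RNA of this kind, fewer cells of a type and less RNA per cell cannot be told apart.

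The files name each probe's transcript by an accession and hold no gene symbol, and 0 of the 26748 accessions matched the goat gene table used here. Members are therefore given by probe and accession, with no gene name or role, and the sources could not be checked against named marker genes. Curated RefSeq records (NM or NR) made up 192 of the members, 69.6%, against 62.8% of all probes and 76.3% of other probes detected on all milk arrays. Ensembl cattle transcripts gave 35 members, predicted RefSeq records 6, TC sequence clusters 27 and other sequence records 16. Only a few accessions are printed, those picked by a stated rule.

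Of the MFG arrays, 2 stood apart. For MFG of PWI goats 2 and 4, 84.6% and 75.3% of all probes were well above background in Cy5, against 44.1% to 51.5% on the other MFG arrays. Per the file headers the MFG arrays were scanned on another day than the rest, and an effect of that day and one of MFG cannot be told apart. Each group lay on a slide of its own, so within MSC or MFG an effect of the slide and one of the breed cannot be told apart. On the blood arrays of PWI goats 3 and 4, 8.43% and 21.1% of spots carried an outlier flag, against 1.84% to 3.53% elsewhere. Where spots of a member were left out for such a flag, the number of goats is given. Of the members, 193 had a value on all 16 milk arrays.

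The levels of the members follow from the way they were chosen and are given without a test. The unit is the log2 ratio of sample over blood reference, where 0 means an equal signal in both dyes. The median of the 276 members lay between -0.25 and -0.02 on the 8 blood arrays, between 0.69 and 1.40 on the 8 MSC arrays, and between 0.59 and 2.12 on the 8 MFG arrays. No milk array overlapped the blood arrays in this median, as the rule nearly ensures. The lowest milk value, 0.59, was that of MFG from PWI goat 2, and the next lowest MFG value was 1.32, from PWI goat 4. Over other probes well above background on all 16 milk arrays, 15652 in number, the median lay between -0.41 and 0.21 on the MFG arrays, lowest again for PWI goat 2.

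**Figure D1:**
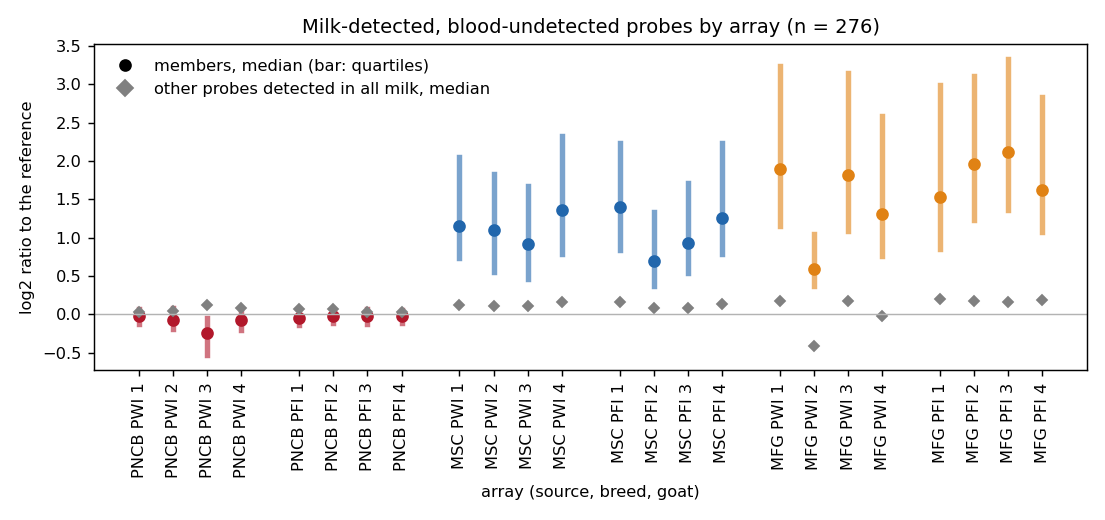
Log2 ratio to the blood reference on each of the 24 arrays, by source, breed and goat. Circles are the median and bars the quartiles over the 276 members, and grey diamonds the median of other probes detected on all milk arrays; members lie near 0 in blood, higher in MSC and mostly higher again in MFG, except for MFG of PWI goat 2 at 0.59, below all MSC arrays, and of PWI goat 4 at 1.32, within the range of the MSC arrays.

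Many members were dim in milk as well. The median net Cy5 signal of the members was 6.5 to 8.75 scanner units on the blood arrays and 68.8 to 148.5 on the MSC arrays. On the MFG arrays it was 73 to 420.75, highest for PWI goat 2. Before any scaling, its median over arrays was 123.1 in MSC and 118.9 in MFG. The background correction adds a constant of 50, which draws low signals together, so folds of dim members are understated. On the log2 ratio scale the difference of the members from blood had a median of 1.15 in MSC, with a range of 0.18 to 5.93, and a median of 1.72 in MFG, with a range of 0.42 to 7.45. Since no member was well above background in blood, its blood level there is only an upper limit.

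In the Cy5 signal, after both dyes were scaled together over arrays, the member farthest above blood in both milk sources was NM_001075759, probe A_73_P037841. Its log2 ratios in MSC were 5.06, 4.88, 5.06 and 5.45 in the PWI goats and 4.69, 4.65 and 4.82 in PFI goats 2, 3 and 4. In MFG they were 6.40, 6.68, 6.48 and 5.99 in the PWI goats and 6.26 and 6.13 in PFI goats 2 and 3. In blood they ranged from -0.22 to 0.34 over 6 goats, so no milk value came near a blood value, and no MFG value fell as low as an MSC value. For this Cy5 signal, blood was set on each array to the lowest signal called well above background, or to the probe's own where higher. On that scale the mean of A_73_P037841 was 221-fold the blood level in MSC and 627-fold in MFG. Its mean log2 ratios, 4.94 in MSC, 6.32 in MFG and 0.01 in blood, give smaller folds. The size of the contrast thus depended on the scale and on the level taken for blood, and no bound is drawn from it. Next on that Cy5 scale came NM_001075832 in MSC (probe A_73_P049491) and TC410991 in MFG (probe A_73_100912).

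TC410991 varied little between the goats measured. Its log2 ratios lay between 4.51 and 5.09 in the 8 MSC samples, with a median of 4.77, and between 5.74 and 6.33 in the 7 MFG samples measured, with a median of 6.01. The MFG sample without a value was that of PWI goat 2, whose array had the lowest median of the members. The ratios of NM_001075832 lay between 4.99 and 6.35 over 7 MSC samples and between 6.40 and 7.80 over 7 MFG samples, with a mean of -0.16 in blood. Its mean log2 ratios were 5.77 in MSC and 7.29 in MFG. Its lowest MFG value was again that of PWI goat 2. At neither printed probe did the measured MSC and MFG values overlap, though at A_73_P049491 the margin was narrow (6.35 against 6.40). The values of the other member probe of NM_001075832 are not given.

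The rule has a threshold on both sides. Another 92 probes were detected on 15 of the 16 milk arrays and on no blood array, with median log2 ratios of 0.55 in MSC and 0.80 in MFG, against 1.07 and 1.62 for the members. A further 86 were detected on all 16 milk arrays and on 1 of the 8 blood arrays, with medians of 1.05 and 1.60. Not well above background does not mean that no signal was present. By the software's milder flag, a signal that is positive and significant, 57 members had no signal on any blood array and 17 had one on all 8. Using the milder flag in the rule itself left 120 members.

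The reference channel offered a look at blood that the rule did not use, since the pool came from other goats. On the blood arrays between 0 and 16 of the 276 members were well above background in Cy3, a mean of 1.95% of members per array. The reference was weaker on the blood arrays of PWI goats 3 and 4, so a missing Cy3 call says less there. Of all probes, 20.4% and 19.9% had Cy3 well above background on them, against 43.1% to 46.5% on the other blood arrays. No Cy3 call on any blood array was seen for 235 members, 85.1%. Among the other 11932 probes with no Cy5 call on a blood array, that share was 84.9%.

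On the milk arrays the same reference pool gave more Cy3 calls at members. They were 5.80% to 10.9% of members on the MSC arrays, with a mean of 7.84% against 1.24% for the other blood-undetected probes. On the MFG arrays the mean was 23.9% against 14.96%, and the values of PWI goats 2 and 4 were 81.5% and 44.2%, against 7.97% to 13.4% on the other 6. The pool was the same throughout, and the part that these Cy3 signals have in the ratios was not tested. Beside this, the median difference of the members between MFG and MSC was -0.03 in Cy3 and 0.60 in Cy5 when each dye was quantile normalised alone. When both were scaled together after loess it was -0.33 in Cy3 and 0.25 in Cy5, so the share of each dye depended on the scaling.

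**Figure D2:**
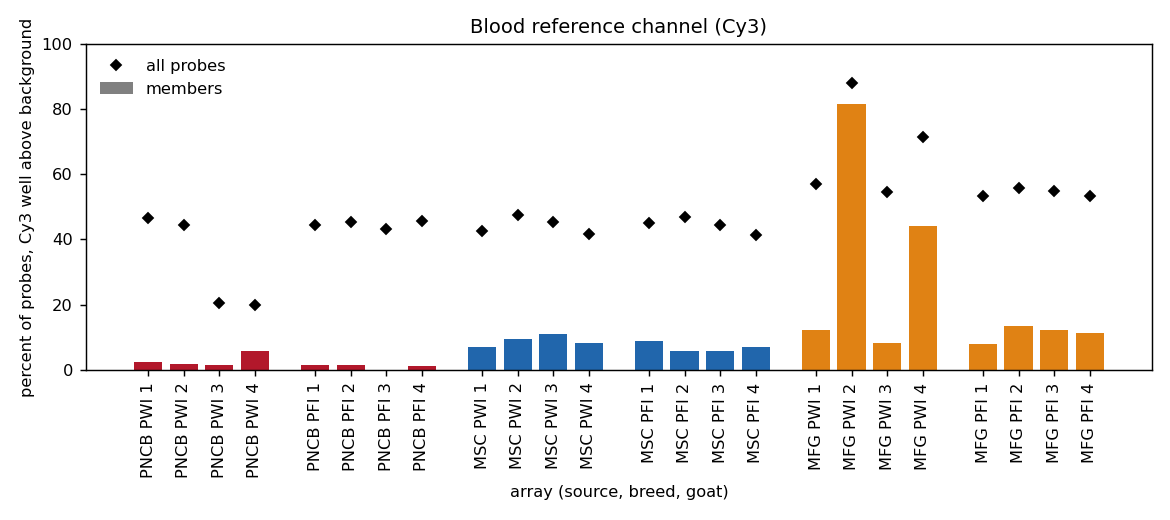
Percent of the 276 members (bars) and of all probes (diamonds) with the Cy3 signal of the blood reference well above background, on each of the 24 arrays. Members stay at or below 13.4% on all arrays except MFG of PWI goats 2 and 4, at 81.5% and 44.2%.

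Within milk, the log2 ratios of the members were mostly higher in fat globules than in somatic cells. This comparison was not part of the rule, which asked for detection in both. Of the 276 members, 146 were higher in MFG and 4 lower (limma on the 16 milk arrays, Benjamini-Hochberg adjusted p below 0.05 over all probes tested). Among the 22973 probes tested, 16.8% were called higher and 27.6% lower. The median difference of the members was 0.55 on the log2 scale, against -0.01 for all tested probes, and 260 members lay above 0. By construction all members passed the filter on dim probes.

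The detection rule asks for signal on every MFG array, and these arrays mostly had fewer probes above background than the MSC arrays (44.1% to 51.5% on 6 of them, against 51.2% to 60.9%). Whether this favoured probes that are bright in MFG was not tested. The other probes detected on all 16 milk arrays meet the same condition but were not matched to the members in signal. On the MSC arrays a mean of 87.7% of them were well above background in Cy3, against 7.84% of the members. They thus cannot show what the condition does to dim probes. Among the 15627 other probes tested, 3123 were called higher and 4082 lower, with a median difference of 0.04. At least 2-fold, 62 members (22.5%) were called higher and 0 lower (limma). At an unadjusted p below 0.05, 172 members were higher and 5 lower, against 21.5% and 30.8% of all tested probes. The background at 2-fold was 1.56% higher and 9.43% lower.

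**Figure D3:**
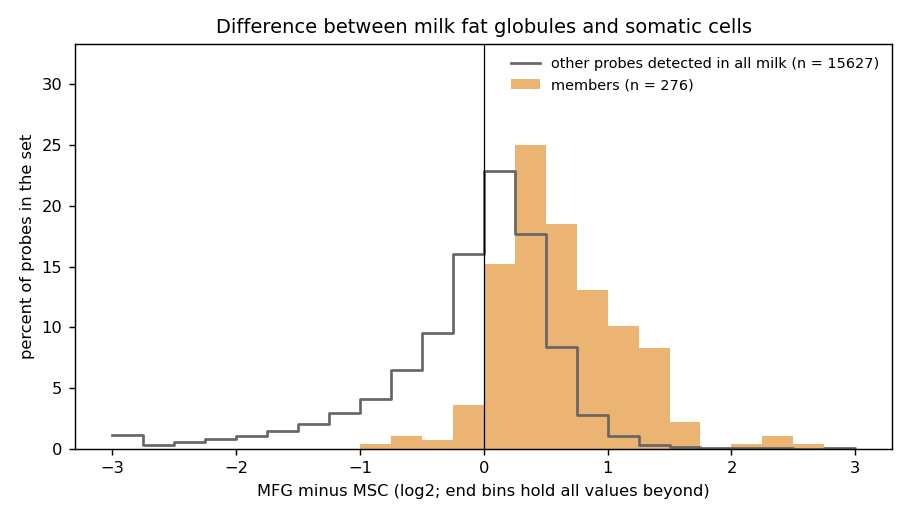
Distribution of the log2 difference MFG minus MSC over the 276 members (bars) and over 15627 other probes detected on all milk arrays (line), each as a percent of its set, in bins of equal width. The members centre on 0.55 and the other probes on 0.04, with a long lower side in the other probes that the members lack.

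The size of the difference depended on the arrays and on the processing. Without the MFG arrays of PWI goats 2 and 4, 209 members were higher and 4 lower, with a median of 0.80, against 30.1% and 26.0% of all tested probes. Within PFI goats alone 170 were higher and 2 lower, and within PWI goats alone 12 and 2, with medians of 0.80 and 0.34. Of all tested probes, 19.6% were higher and 19.8% lower within PFI goats, and 1.61% and 14.6% within PWI goats. Whether the breeds differ in this was tested by an interaction, given with the breeds. With each array centred on its median in place of loess, 44 members were higher and 13 lower, 77.2% of calls against 97.3%, while the members' median was 0.11 and that over all tested probes -0.78. Of all tested probes 3.95% were then higher and 75.7% lower. With the scanner's processed values 41 were higher and 0 lower, against 12.0% and 31.6% of all. With the spots that carry an outlier flag kept, 8 of the 276 members were higher and 1 lower, with a median of 0.24, while 5.91% of all tested probes were higher and 18.3% lower. The share of members called higher was then below that of all probes, and the cause was not tested. Without PWI goat 3, 95 members were higher and 2 lower, against 9.76% and 25.7% of all tested probes. Without PFI goat 2, 93 were higher and 4 lower, against 10.1% and 22.8%.

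Values of single goats overlapped at nearly all members. Of 193 members with a value on all 16 milk arrays, 3 (1.55%) had every MFG array above every MSC array and 0 the reverse. Among 10451 other milk-detected probes these shares were 0.83% and 12.4%. Without the MFG arrays of PWI goats 2 and 4, 73 of 200 members (36.5%) had all 6 MFG arrays above all 8 MSC arrays and 0 the reverse, against 13.98% and 14.2% of 10891 other milk-detected probes.

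**Figure D4:**
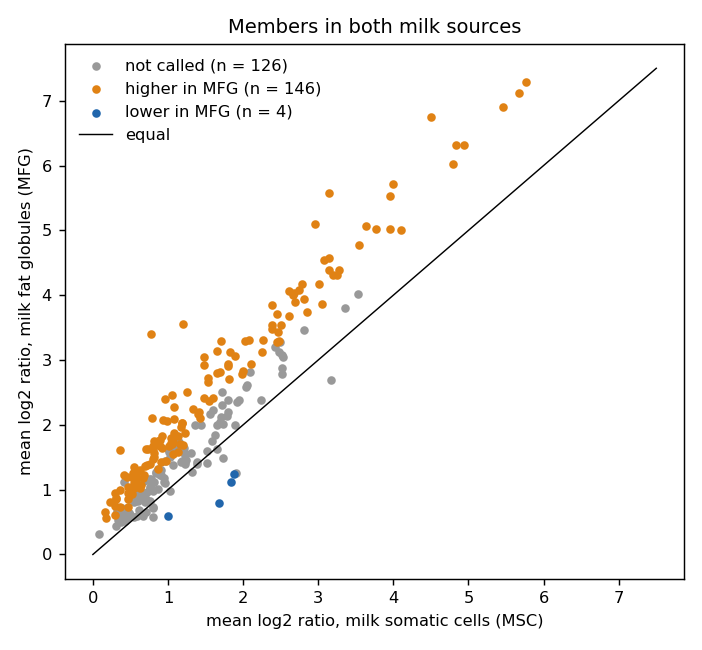
Mean log2 ratio to the blood reference of each of the 276 members in MSC (horizontal) and in MFG (vertical), over 8 goats or those measured. Orange points are the 146 members called higher in MFG, blue points the 4 called lower and grey points those not called; most points lie above the line of equal ratios, at low and at high ratios.

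Members called at least 2-fold higher and higher in MFG in all 8 goats, matched by goat number, numbered 9, and 0 were lower by the same criteria. Among all tested probes 0.335% were higher and 5.69% lower by these criteria. The first of them by fold was NM_001110066, probe A_73_120706. In MSC its log2 ratios were 0.70, 0.93, 0.60 and 0.97 in PWI goats 1 to 4 and 1.67, 0.33, 0.15 and 0.83 in PFI goats 1 to 4. In MFG they were 4.50, 1.33, 3.55 and 2.90 in the PWI goats and 3.89, 3.98, 3.83 and 3.19 in the PFI goats. All MFG samples but that of PWI goat 2 lay above all MSC samples. The mean in MFG exceeded that in MSC by 2.62 on the log2 scale (6.16-fold, SE 0.35, limma adjusted p = 3.49e-05). Another probe of the accession, A_73_P077461, was well above background on 2 milk arrays and 1 blood array and was not tested.

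The next was a further probe of NM_001075759, A_73_P273841. Its log2 ratios in MSC were 3.95, 2.31, 2.55 and 3.16 in PWI goats and 4.45, 2.24, 2.81 and 3.69 in PFI goats. In MFG they were 5.28, 3.22, 6.22 and 5.65 in PWI goats and 6.14, 6.34, 6.17 and 5.53 in PFI goats. Again PWI goat 2 alone kept the sources from separating. The difference was 2.42 (SE 0.41, limma adjusted p = 0.000248). The brighter probe of the same accession, A_73_P037841, differed by 1.38 (SE 0.13, limma adjusted p = 9.34e-06), so the size was not the same at both probes while the direction was.

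The 4 members called lower in MFG were singled out after their values were seen, since none of them reached 2-fold, and the 2 with the lowest difference are given. NM_001015553 (probe A_73_P307831) had log2 ratios in MSC of 1.65, 2.19 and 2.13 in PWI goats 1 to 3 and of 1.16, 1.63, 2.06 and 0.94 in PFI goats. In MFG they were 1.16, 0.26, 1.0 and 0.98 in PWI goats and 0.54, 0.71, 0.88 and 0.84 in PFI goats. The sources overlapped slightly, and MSC was higher in 7 of the 7 goat numbers compared (log2 difference -0.92, SE 0.18, limma adjusted p = 0.000909). At NM_174007 (probe A_73_116397) the MSC values lay between 1.49 and 2.13 and the MFG values between 0.54 and 2.16, the highest MFG value being that of PFI goat 3 (log2 difference -0.73, SE 0.19, limma adjusted p = 0.0055). Both calls were lost with the scanner's processed values, at differences of -1.30 and -1.31, and with outlier spots kept, at -0.79 for each. The second was also lost within PFI goats alone, at -0.46, and with outlier spots left out after the background fit, at -0.79. Each of these accessions also had a further probe, not a member, well above background on all 8 blood arrays. These probes differed by -1.29 at NM_001015553 (A_73_116037, limma adjusted p = 0.00432) and by -0.48 at NM_174007 (A_73_P051851, limma adjusted p = 0.00905). Another probe of NM_001015553 (A_73_P279356), detected on 12 milk arrays and 0 blood arrays, differed by -0.80.

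**Figure D5:**
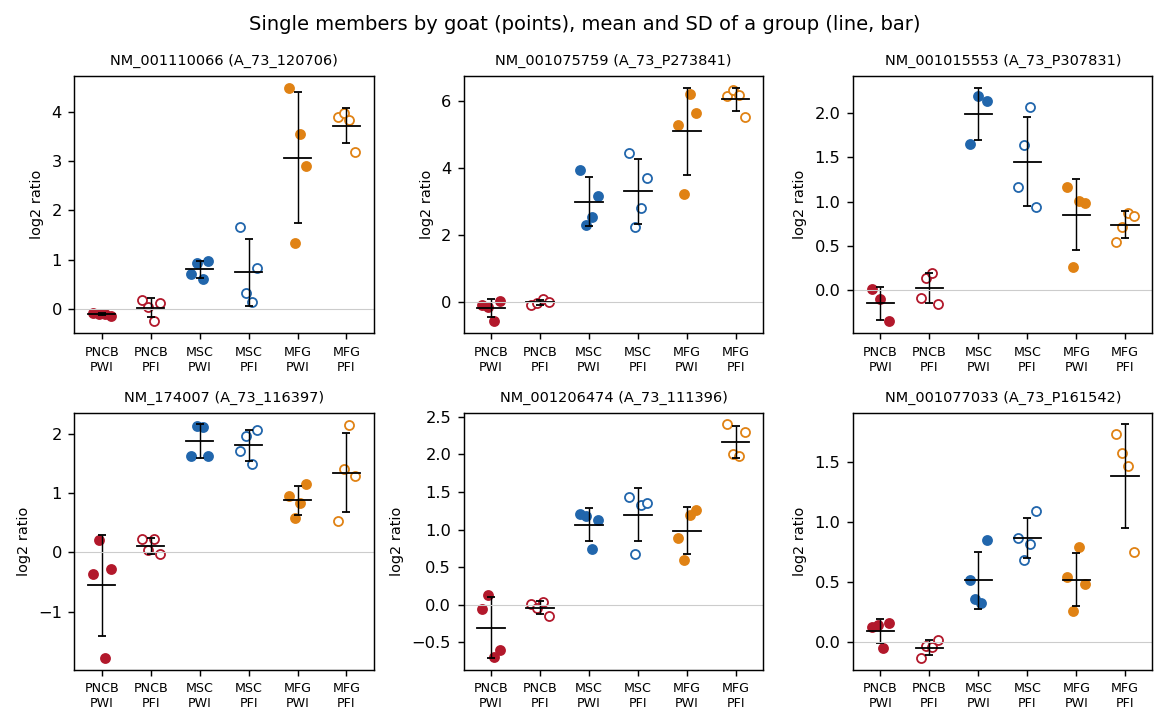
Log2 ratio to the blood reference of 6 single members (panels, by accession and probe) in PNCB, MSC and MFG of PWI (filled points) and PFI (open points), 1 point per goat, with the mean and SD of each group. The top left and top middle panels are higher in MFG, the top right and bottom left panels lower in MFG, and the bottom middle and bottom right panels show the members with the smallest breed p-values.

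Probes of one accession are not independent of each other. Of the 230 accessions, 189 had 1 member probe, 36 had 2 and 5 had 3. The members called higher in MFG came from 123 accessions and those called lower from 4. Among the 41 accessions with at least 2 member probes, the range of MFG minus MSC between probes had a median of 0.24 and a maximum of 1.05. Of the 5 accessions with 3 member probes, NM_001035364 had all of them called higher, with differences from 1.16 to 1.46, and NM_001192903 had 1 of them called higher, with differences from 0.12 to 0.59.

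Other probes of the same accessions were not all undetected in blood. The array holds 179 further probes with the accession of a member. Of these, 83 (46.4%) were detected on some milk arrays and on no blood array. Another 34 (19.0%) were detected on all 24 arrays, milk and blood alike, and 39 (21.8%) on all milk arrays and 1 to 7 blood arrays. For 31 of the 230 accessions, a further probe was detected on every blood array. For 22 accessions with at least 2 probes, all of their probes were members.

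The members differed more between goats than other milk-detected probes did. The median SD between goats of a breed was 0.35 in MSC and 0.55 in MFG, against 0.24 and 0.30 for other probes detected on all milk arrays, on the log2 scale and without a test. They also moved together from array to array. Across the 8 MSC arrays, as deviations from the breed mean, the median pairwise correlation was 0.53 over 234 members and 0.02 over 1612 other milk-detected probes. Across the 8 MFG arrays it was 0.70 over 224 members and 0.48 over 1592 other probes. These correlations describe single arrays, each of which shares its RNA, labelling and hybridisation among all probes, and the share of each was not tested. The MFG values include the arrays of PWI goats 2 and 4, where the members' median log2 ratio was 0.59 and 1.32. On those of PWI goats 1 and 3 it was 1.90 and 1.82. Spread and correlation in MFG were not computed without the arrays of PWI goats 2 and 4.

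The widest spread between goats was at NM_174314, probe A_73_114371. Its log2 ratios in MSC were 5.20, 2.75, 3.30 and 1.10 in PWI goats 1 to 4 and 2.30, 3.60, 4.13 and 2.93 in PFI goats 1 to 4. In MFG they were 3.29, 0.53, 4.54 and 5.47 in the PWI goats and 1.06, 1.54, 2.26 and 2.83 in the PFI goats. MSC and MFG overlapped over most of their range, the order of the goats was not the same in both, and the source difference was not called (-0.47, SE 0.65, limma adjusted p = 0.577). In blood all 8 values lay between -0.30 and 0.10. The narrowest spread was at ENSBTAT00000022368 (probe A_73_P070356), with ratios of 0.30 to 0.76 in MSC and 0.41 to 0.80 in MFG.

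The study also asked whether the breeds differ. No member differed between PWI and PFI by limma, whether in MSC, in MFG or over both milk sources with 1 mean per goat. In MSC, 0 of 276 members were called, with 8 at an unadjusted p below 0.05 (7 higher in PWI and 1 lower). The background there was 0 calls, with 1.58% higher and 2.44% lower at the unadjusted p. In MFG, 0 were called, with 1 higher and 41 lower in PWI at an unadjusted p below 0.05 against 1.67% and 7.12% of all tested probes. Over both sources, 0 of 275 were called, with 6 higher and 34 lower at an unadjusted p below 0.05, against 1.69% and 7.69%. Of all tested probes, 0.00435% were called higher and 0.0131% lower in MFG, and 0.00871% higher and 0.0131% lower over both sources.

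The median PWI minus PFI difference of the members in MFG was -0.41, against -0.17 for all tested probes. Without the MFG arrays of PWI goats 2 and 4 it was 0.03 for the members and 0.01 for all. Of the 276 members, 145 then lay above 0, against 31 with all arrays. The number of members at an unadjusted p below 0.05 was 42 in both fits. For the fit without these arrays, their directions and the share of all tested probes are not given, so the equal counts need not be the same members. In MSC the members' median was 0.04. With outlier spots kept the members' median was -0.07 in MFG, against -0.14 for all tested probes. In MSC it turned to -0.37, against -0.02 for all. The interaction of breed and milk source was called at 0 members by limma, with 14 at an unadjusted p below 0.05, all in the direction of a lower PWI value in MFG. All probes tested gave 0 interaction calls too, with 3.8% at an unadjusted p below 0.05 in that direction and 0.762% in the other.

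The member with the smallest breed p-value was NM_001206474, probe A_73_111396. In MFG its log2 ratios were 0.88, 0.60, 1.20 and 1.26 in PWI goats and 2.40, 2.0, 1.97 and 2.30 in PFI goats, so the breeds did not overlap. In MSC they were 1.21, 1.18, 0.74 and 1.13 against 1.43, 0.67, 1.33 and 1.35, and the breeds overlapped. The difference in MFG was -1.18 (SE 0.18, limma adjusted p = 0.152) and did not pass the threshold. The other member probe of the accession, A_73_P154011, differed by -1.21 (SE 0.23, limma adjusted p = 0.319). Without PWI goat 2 the first probe was called in MFG at a difference of -1.05, (limma adjusted p = 0.0394), and with array weights at -1.05 as well. Also without PWI goat 2, NM_001034331 (probe A_73_P154432, singled out after its values were seen) was called higher in PWI by 1.65 (1.48 without PWI goats 2 and 4 in MFG), while with all goats it differed by 1.14 (SE 0.44, limma adjusted p = 0.52). Further probes of NM_001034331, A_73_120341 and A_73_P270716, were well above background on 1 and 2 milk arrays and on 0 blood arrays. Neither was tested.

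NM_001077033 (probe A_73_P161542) had the smallest p-value over both milk sources. Its log2 ratios in MSC were 0.52, 0.36, 0.32 and 0.85 in PWI goats and 0.87, 0.69, 0.82 and 1.09 in PFI goats. In MFG they were 0.54, 0.26, 0.80 and 0.49 in PWI goats and 1.73, 1.58, 1.47 and 0.75 in PFI goats. The highest PWI goat overlapped the PFI goats in each source. The difference over both sources was -0.61 (SE 0.11, limma adjusted p = 0.292). The breed values of the other member probe of NM_001077033 are not given.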

How the data were processed

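Per the file headers, the authors scanned 2-colour arrays with Agilent Feature Extraction 10.7.3.1, and the deposited scanner files hold spot and background intensity, processed signals and 0 or 1 flags. The deposited table holds log10 ratios equal to the scanner's (largest difference 0). The cattle build UMD 3.1 / bosTau6 is named in the headers.

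From the intensities, log2 ratios were made with R 4.3.3 and limma 3.58.1: spots with outlier flags left out, normexp with offset 50, loess within arrays, spots of a probe averaged. Tests took the probes that all 4 arrays of some milk group showed well above background. MFG was compared with MSC on the 16 milk arrays, without the blood arrays, in which members lie near background by rule. Breeds were compared on 8 arrays per source and on goat means. The threshold was a Benjamini-Hochberg adjusted p of 0.05. On simulated data the share of false calls came out above the nominal threshold, and not all 2-fold changes were recovered. The number of arrays limits the precision.

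Members and lists were chosen with earlier results of these data known. The naming rule took called members by fold with 1 sign in all goats, the largest Cy5 folds over blood, the smallest breed p-values, accessions with 3 member probes, and the widest and narrowest spread. As the files give no gene names, at most 2 accessions a direction are printed and the symbol lists were not used. Alternatives changed the background correction, scaling, filter, outlier spots, blocks and goats.

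The labels describe 8 goats sampled for 3 sources and number them alike in each, and goats were matched by that number. No label states the match outright. Deviations of the same goat in MSC and MFG correlated at -0.29 to 0.22 across tested probes, above 0.1 in 3 of 8 goats.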

Additional observations from a re-analysis of the deposited data

Results flagged for a closer look

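In 59 groups of 4 values (single members given above in each milk group, and array summaries of the members), a single group had one goat set far apart; about 2.95 such groups are due by chance. The log2 ratio of NM_001206474 (probe A_73_111396) in MSC of PFI goat 2 was 0.67, while the other 3 PFI goats lay between 1.33 and 1.43.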

How the results depend on the processing

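The count of members called between MFG and MSC was 150 and stayed within 1.5 times of it under 14 alternatives. It was 41 from the processed values of the scanner, 57 under median centring, 9 with outlier spots kept, 236 with array weights and 14 within PWI goats alone. Of all tested probes, 33.8% were higher and 30.1% lower with array weights, and the other shares are given above. The count was 11 (9 higher and 2 lower) with outlier spots left out after the background fit, an alternative chosen after seeing the data. Of all tested probes 5.82% were then higher and 17.9% lower, so the members' share called higher was below that of all. Leaving out each goat in turn gave 97 to 190 calls, against 9.76% to 24.8% of all tested probes higher and 22.8% to 26.6% lower. With the goat as a replicate block the count was 140, against 14.6% of all tested probes higher and 25.2% lower. Of the 146 higher calls, 131 were shared with that fit, and no interaction was called with it either. Breed calls in MFG were 2 with array weights and 1 without the MFG arrays of PWI goats 2 and 4, and 0 to 2 with a goat left out. Of all tested probes, 0.0871% were then higher in PWI and 0.144% lower with array weights. Without the MFG arrays of PWI goats 2 and 4 these shares were 0.0218% and 0.0131%. With a goat left out they were at most 0.0610% in each direction, reached without PWI goat 2. In MSC, over both sources and for the interaction, 0 members were called under all alternatives run. The number of members was 120 with the milder flag, 476 with at least 15 milk arrays and at most 1 blood array, and 282 to 321 without a goat. NM_001110066 and NM_001075759 (A_73_P273841) stayed called higher in MFG under all 22 alternatives. The cause of these changes was not tested. Low signal over background limits the folds of dim members.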
